A study of Homo sapiens with 24 samples.

Results

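The aldehyde dehydrogenases described here are 8 genes out of 63299 in the count table, taken by matching Ensembl identifiers to the symbols ALDH1A1, ALDH1A2, ALDH1A3, ALDH1B1, ALDH2, ALDH3A1, ALDH3A2 and ALDH7A1. All 8 were found. The choice rested on their reported link to drug resistance and stem-like states, and it was made with earlier results of these data known. Transcripts were measured by RNA-Seq of total RNA in A2780, a platinum-sensitive human ovarian cancer (OC) cell line, and A2780cis, its isogenic platinum-resistant derivative. Each line was exposed to 5-FdU-ECyd at 1 µM for 6 h or 12 h or kept in drug-free medium as control, which gave 8 groups of 3 libraries each. 5-FdU-ECyd is a duplex-prodrug that joins the antimetabolites 2'-deoxy-5-fluorouridine and 3'-C-ethynylcytidine. Control cultures of both lines received no drug during the experiment, but A2780cis cells had been given cisplatin at intervals to keep up their resistance, so that resistance and this upkeep cannot be told apart. A2780cis is a single derived line. The study calls the 3 libraries of a group biological replicates but does not say whether they came from separate flasks, passages or days, and p-values cover the spread between these samples.

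Aldehyde dehydrogenases oxidise aldehydes to carboxylic acids with NAD or NADP as cofactor. ALDH1A1, ALDH1A2 and ALDH1A3 are cytosolic enzymes that make retinoic acid from retinaldehyde, the step that supplies ligand to the nuclear retinoic acid receptors. ALDH2 and ALDH1B1 are mitochondrial and clear acetaldehyde, ALDH3A1 and ALDH3A2 act on medium-chain and fatty aldehydes, and ALDH7A1 acts in lysine breakdown. High ALDH activity is widely used to mark stem-like cells in OC, and ALDH1A1 and ALDH1A3 are the isoforms most often named for it.

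ALDH1A1 (ENSG00000165092.12, chr9:72900671-73080442), ALDH1A2 (ENSG00000128918.14, chr15:57953424-58497866), ALDH3A1 (ENSG00000108602.17, chr17:19737984-19748943) and ALDH7A1 (ENSG00000164904.16, chr5:126531200-126595362) lie on the minus strand of GRCh38 in GENCODE 44. ALDH1A3 (ENSG00000184254.16, chr15:100877714-100916626), ALDH1B1 (ENSG00000137124.7, chr9:38392702-38398661), ALDH2 (ENSG00000111275.12, chr12:111766887-111817532) and ALDH3A2 (ENSG00000072210.18, chr17:19648136-19685760) lie on the plus strand.

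The promoters of the retinoic acid-forming enzymes are shown because the largest differences between the lines lay in this subfamily. RefSeq (GRCh38.p14) listed a promoter window of 300 bases for 6 of the 8 genes. ALDH1A1 lies on chromosome 9 (window chr9:72953004-72953303, minus strand), ALDH1A2 on chromosome 15 (chr15:58065662-58065961, minus strand) and ALDH1A3 on chromosome 15 (chr15:100879581-100879880, plus strand). Each window runs from 250 bases before to 50 bases after the annotated start and is given 5′ to 3′, and capitals mark the motif CCAAT.
ALDH1A1: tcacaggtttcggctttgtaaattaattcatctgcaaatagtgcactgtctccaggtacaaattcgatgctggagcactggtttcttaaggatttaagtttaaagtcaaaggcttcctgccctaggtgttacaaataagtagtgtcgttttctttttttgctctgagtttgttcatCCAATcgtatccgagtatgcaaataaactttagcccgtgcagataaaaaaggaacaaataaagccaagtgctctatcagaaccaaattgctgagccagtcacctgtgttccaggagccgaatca
ALDH1A2: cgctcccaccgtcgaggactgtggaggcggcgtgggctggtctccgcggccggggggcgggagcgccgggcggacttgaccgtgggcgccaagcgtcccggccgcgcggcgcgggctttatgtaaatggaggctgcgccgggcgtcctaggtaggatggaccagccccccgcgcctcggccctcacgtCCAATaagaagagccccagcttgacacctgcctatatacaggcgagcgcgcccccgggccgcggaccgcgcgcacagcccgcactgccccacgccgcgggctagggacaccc
ALDH1A3: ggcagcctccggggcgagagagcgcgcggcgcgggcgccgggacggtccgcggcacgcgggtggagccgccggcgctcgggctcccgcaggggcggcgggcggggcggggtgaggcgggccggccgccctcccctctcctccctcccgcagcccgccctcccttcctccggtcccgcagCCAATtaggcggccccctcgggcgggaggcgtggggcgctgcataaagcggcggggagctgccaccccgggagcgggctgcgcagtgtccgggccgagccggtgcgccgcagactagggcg
The ALDH1A1 window held 40.3% G or C and 7 CpG dinucleotides, whereas the ALDH1A2 and ALDH1A3 windows shown held 74% and 81.7% G or C with 41 and 46 CpG. A second listed ALDH1A2 window (chr15:58013974-58014273), not shown, held 42.7% G or C, 1 CpG and no CCAAT. The median of all 35116 windows was 58.7% G or C and 14 CpG. Both strands were searched for 5 motifs. CCAAT was present once in each of the 3 windows, starting 74, 62 and 71 bases before the annotated start of ALDH1A1, ALDH1A2 and ALDH1A3. It was also found in 1 window each of ALDH1B1, ALDH3A2 and ALDH7A1, and in 34.6% of all windows. The TATA box motif TATAAA was found in none of the 8 windows listed for the 6 genes and in 11.5% of all windows. The AP-1 motif TGANTCA was absent from the 8 windows and held by 7.71% of all. The same held for the antioxidant response motif TGACNNNGC, with 13.3% of all windows, and for the p53 half-site, with 6.63%. Which start site the cells used was not tested.

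Total counts per library ranged from 11077368 to 21901406. Levels are given as CPM, the count divided by the library's total after TMM scaling (trimmed mean of M-values), or as RPKM, the CPM per kilobase of the canonical transcript, where genes are compared with each other. The differences are log2 fold changes (log2 FC) of CPM from 1 model over all libraries, and a gene was called at an adjusted p of at most 0.05. Of the epithelial OC markers, PAX8, WT1 and MUC16 reached no more than 2 reads in any library, whereas VIM was at 2090.7 ± 146 CPM (SD, n = 3) in untreated A2780 cells at 6 h. Of 4 listed mesenchymal genes, 3 were lower and none higher in untreated A2780cis at 12 h, beside 27.5% and 25.4% of all genes. These were CDH2 (log2 FC -3.42), FN1 (-1.44) and ZEB1 (-0.33, a call lost without any 1 of 4 of the 6 libraries). At 6 h, 3 were lower and 1 higher, beside 22.9% and 25%. VIM was at 2367 CPM in untreated A2780 and 2344 CPM in untreated A2780cis at 12 h, and at 862 and 843 CPM with treatment. The 10 epithelial markers summed to 2.36 to 7.15 CPM in A2780 libraries and 25.5 to 36 CPM in A2780cis libraries. Most of the A2780cis sum was keratin, with KRT18 at 26.1 and KRT8 at 5.43 CPM in untreated cells at 12 h. Only 4 of the 10 were tested. In untreated A2780cis at 12 h, 2 were higher (KRT18 and KRT8) and 1 lower, beside 25.4% and 27.5% of all genes. At 6 h 2 were higher and none lower, beside 25% and 22.9%. KRT18 was at 1.11 ± 0.522 CPM in untreated A2780 and 23.4 ± 2.5 CPM in untreated A2780cis cells at 6 h, and its part in the line differences was not tested. Summed leukocyte and endothelial markers did not exceed 0.411 and 0.1 CPM in any library.

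By canonical transcript length, ALDH7A1, ALDH1B1 and ALDH3A2 were the most abundant members in all 8 groups. In untreated A2780 cells at 12 h, ALDH7A1 led, followed by ALDH1B1, ALDH3A2, ALDH2, ALDH1A2, ALDH1A1, ALDH1A3 and ALDH3A1, and only the last pair of neighbours overlapped in their ranges. In untreated A2780cis cells at 12 h the order was ALDH1B1, ALDH3A2, ALDH7A1, ALDH1A1, ALDH1A3, ALDH2, ALDH1A2 and ALDH3A1. Here ALDH3A2 and ALDH7A1, ALDH1A1 and ALDH1A3, and ALDH1A2 and ALDH3A1 overlapped. The order at the top depends on the length used: with the length of all annotated exons, chosen after the data were seen, ALDH1B1 and not ALDH7A1 led in A2780 cells, ALDH1A1 ranked above ALDH1A2 there in the untreated groups, and at 12 h ALDH2 took the third place in A2780 cells and the fifth place in untreated A2780cis cells. By canonical length, ALDH2 took the fourth place in A2780 cells and the sixth place in untreated A2780cis cells, below ALDH1A1 and ALDH1A3.

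**Figure D1:**
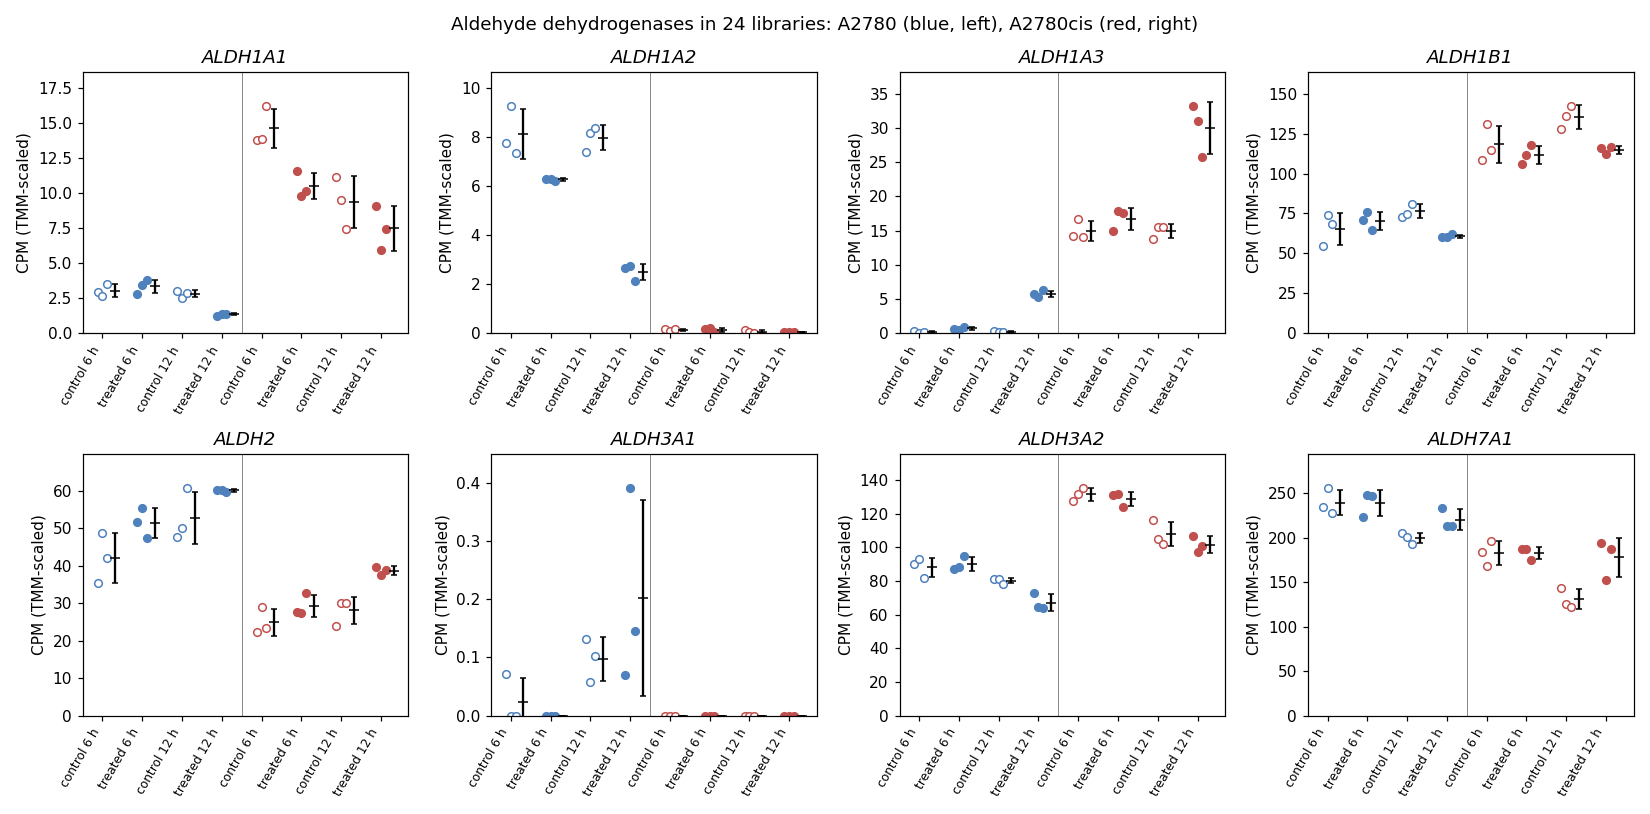
TMM-scaled CPM (linear axis from 0, own scale per gene) of the 8 aldehyde dehydrogenases in each of the 24 libraries. Points are libraries, open for control and filled for 5-FdU-ECyd, blue for A2780 and red for A2780cis, and black marks give the mean ± SD of 3. ALDH1A2 is near 0 in every A2780cis library, while ALDH1A3 is near 0 in the untreated A2780 libraries and at 5.33 to 6.27 CPM after 12 h of treatment.

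To see how the lines differed before treatment, untreated A2780cis cells were compared with untreated A2780 cells at each time. All 7 members with enough reads for the test were called at 6 h and at 12 h, 4 higher and 3 lower in A2780cis, against a background of 47.9% and 52.9% of the 20240 genes tested. Of all genes, 25% were higher and 22.9% lower in A2780cis at 6 h, and 25.4% and 27.5% at 12 h. In both comparisons the libraries of the lines did not overlap for these 7 members, which held for 52% and 62.3% of all genes. ALDH1A1, ALDH1A3, ALDH1B1 and ALDH3A2 were higher in the platinum-resistant line, and ALDH1A2, ALDH2 and ALDH7A1 were lower. The median absolute log2 FC over the tested members was 0.85 at 6 h and 0.91 at 12 h, beside 0.44 and 0.45 over all genes.

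ALDH1A3 had the largest difference in favour of A2780cis. At 6 h untreated A2780 libraries held 0.359, 0.0946 and 0.182 CPM, and those of A2780cis 14.2, 16.6 and 14.1 CPM. At 12 h the values were 0.33, 0.174 and 0.154 CPM against 13.8, 15.5 and 15.5 CPM. Untreated A2780 cells thus held 8 reads of ALDH1A3 in all at 6 h and 11 at 12 h, and A2780cis cells held 492 and 850. The log2 FC was 6.01 ± 0.26 (SE, adjusted p = 8.22e-17) and 6.08 ± 0.23 (adjusted p = 5.78e-18). As a ratio of pooled CPM this was 66.1-fold with a 95% counting interval of 33.3 to 154, and 70.2-fold with an interval of 39 to 141, where the interval covers counting error only.

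The antisense gene ALDH1A3-AS1 shares 1715 bases (32.1%) of the annotated exons of ALDH1A3 and its counts moved with those of ALDH1A3. It was at 1 to 2 reads in untreated A2780 cells at 6 h and at 105 to 119 in A2780cis. The library kit marks strand, but the strand setting of the counting was not given in the sources used here, and reads over several genes were allowed to count for each, so that reads of the pair cannot be told apart. When the whole ALDH1A3-AS1 count was taken from that of ALDH1A3, 0 to 3 reads remained per untreated A2780 library at 6 h and 43 to 61 per A2780cis library, and at 12 h 0 to 1 against 111 to 122.

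ALDH1A2 showed the opposite pattern. At 6 h untreated A2780 libraries held 7.75, 9.27 and 7.37 CPM, and those of A2780cis 0.185, 0.1 and 0.164 CPM. At 12 h it was at 7.39, 8.16 and 8.38 CPM against 0.144, 0.0561 and 0 CPM, and no A2780cis library held more than 3 reads of it. The fitted log2 FC was -5.67 ± 0.32 (adjusted p = 2.55e-14) at 6 h and -6.68 ± 0.31 (adjusted p = 3.53e-16) at 12 h. Pooled CPM were 53.4-fold higher in A2780 cells at 6 h (counting interval 22.6 to 166, 287 against 5 reads) and 114-fold higher at 12 h (44.4 to 422, 416 against 4 reads). AQP9, which overlaps ALDH1A2 over 354 exonic bases on the opposite strand, held 5 to 16 reads in the untreated A2780 libraries and 0 in untreated A2780cis.

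All 5 listed fibroblast genes were lower in A2780cis at 6 h and at 12 h, beside 22.9% and 27.5% of all genes, in parallel with ALDH1A2. Their summed level was 49.9 to 67.8 CPM in untreated A2780 libraries and 1.76 to 3.03 CPM in untreated A2780cis libraries at 6 h, and 76 to 86 against 2.86 to 3.72 CPM at 12 h. Of this list COL1A2, a fibrillar collagen chain, was at 57.2 ± 3.68 CPM in untreated A2780 at 12 h and had 1 read over the 3 A2780cis libraries. Their part in the ALDH1A2 difference was not tested, and in such bulk samples fewer cells of a kind and less RNA per cell cannot be told apart.

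ALDH1A1 was higher in A2780cis by a smaller factor. At 6 h it was at 2.94, 2.65 and 3.55 CPM in A2780 and at 13.8, 13.8 and 16.2 CPM in A2780cis, with a log2 FC of 2.26 ± 0.18 (adjusted p = 4.01e-11). At 12 h it was at 3.04, 2.55 and 2.88 CPM against 11.1, 9.49 and 7.45 CPM, with a log2 FC of 1.73 ± 0.17 (adjusted p = 2.49e-09). The level in untreated A2780cis cells was itself lower at 12 h than at 6 h, by 0.64 on the log2 scale (log2 FC -0.64, adjusted p = 0.00198).

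The remaining members differed by less than the retinaldehyde dehydrogenases. ALDH1B1 was at 76.3 ± 4.39 CPM in A2780 and 135 ± 7.29 CPM in A2780cis at 12 h, with a log2 FC of 0.85 at 6 h and 0.83 at 12 h (adjusted p = 3.65e-08 and 3.67e-08). ALDH3A2, the fatty aldehyde dehydrogenase, was higher by a log2 FC of 0.58 and 0.43 (adjusted p = 7.24e-07 and 4.38e-05). ALDH2 was lower, at 47.5, 50.1 and 60.6 CPM in A2780 and 24, 30 and 30.1 CPM in A2780cis at 12 h, with a log2 FC of -0.76 and -0.91 (adjusted p = 1.96e-05 and 5.33e-07). A same-strand gene, ENSG00000257767, shares 680 exonic bases with ALDH2 and held 64 to 379 reads per library. ALDH7A1 was lower by a log2 FC of -0.39 and -0.61 (adjusted p = 0.00102 and 3.43e-06).

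ALDH3A1 could not be tested. It reached 8 reads at most and 18 reads over all 24 libraries. No read fell on it in any of the 12 A2780cis libraries, where a count of 0 allows up to 0.0909 CPM in the pooled untreated libraries at 6 h and 0.0525 CPM at 12 h. In A2780 cells the 18 reads were spread over untreated cells at 6 h (1 read) and 12 h (5 reads) and treated cells at 12 h (12 reads).

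The make-up of the retinaldehyde dehydrogenases on the RPKM scale therefore differed between the lines. In untreated A2780 cells at 12 h ALDH1A2 took 62.6 ± 3.6% (SD, n = 3) of their summed RPKM, ALDH1A1 35.7 ± 2.93% and ALDH1A3 1.69 ± 0.759%. The lead of ALDH1A2 depends on the canonical length. With the length of all annotated exons, ALDH1A1 was at 0.993 and ALDH1A2 at 0.982 RPKM in these cells. In untreated A2780cis cells ALDH1A1 took 50.5 ± 6.28%, ALDH1A3 49.3 ± 6.5% and ALDH1A2 0.214 ± 0.23%. The sum was 3.76 ± 0.112 RPKM in A2780 and 8.79 ± 0.685 RPKM in A2780cis. By canonical length these transcripts thus stayed well below ALDH1B1, ALDH3A2 and ALDH7A1 in both untreated lines. With the length of all annotated exons, the distance to ALDH3A2 and ALDH7A1 was smaller in untreated A2780cis at 12 h. There ALDH1A1 and ALDH1A3 were at 3.29 and 2.8 RPKM, beside 7.02 for ALDH3A2 and 7.29 for ALDH7A1.

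The shares above count all ALDH1A3 reads, and all shares given here use the canonical transcript length. With the whole ALDH1A3-AS1 count taken from that of ALDH1A3, a lower limit chosen after the data were seen, ALDH1A3 took 28.5 ± 4.53% and ALDH1A1 71.2 ± 4.23% in untreated A2780cis cells at 12 h, and ALDH1A3 0.128 ± 0.221% in untreated A2780. ALDH1A3 was then at 1.75 ± 0.0519 RPKM in untreated A2780cis at 12 h, below ALDH1A1 and ALDH2.

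**Figure D2:**
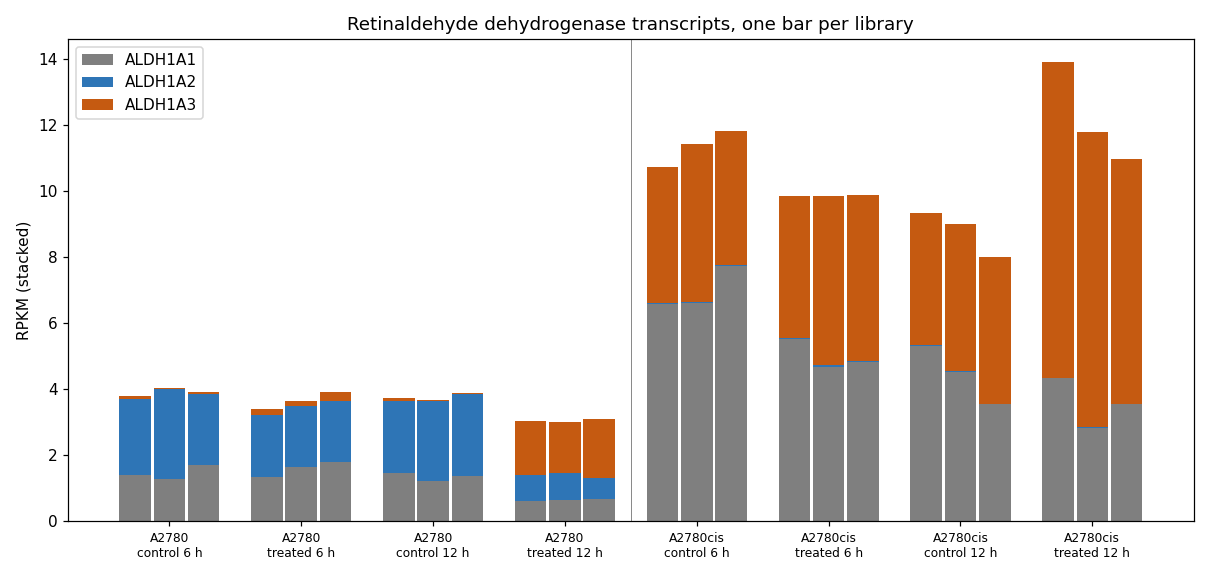
Stacked RPKM of ALDH1A1 (grey), ALDH1A2 (blue) and ALDH1A3 (orange), 1 bar per library, for the 8 groups with A2780 on the left and A2780cis on the right. The summed level was 3.76 RPKM on average in untreated A2780 at 12 h and 8.79 in untreated A2780cis, and the orange share in A2780 at 12 h was 1.69% without and 54.6% with treatment, or 0.128% and 31.6% with the ALDH1A3-AS1 count taken away.

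The effect of 5-FdU-ECyd was studied against the matching control of each line and time. After 6 h, 1 of 7 tested members was called in A2780 (ALDH1A3, higher), where 29.4% of all genes were called, 16% higher and 13.4% lower. In A2780cis 1 of 7 was called at 6 h (ALDH1A1, lower), beside 30.7% of all genes, 14.4% higher and 16.3% lower. After 12 h, 5 of 7 were called in A2780, 1 higher and 4 lower, beside 54.8% of all genes, 28.6% higher and 26.1% lower. In A2780cis 4 of 7 were called at 12 h, 3 higher and 1 lower, beside 59.9% of all genes, 31% higher and 28.9% lower. Treated and untreated libraries did not overlap for 2 members in A2780 and 1 in A2780cis at 6 h (41.6% and 43.2% of all genes), and for 6 and 4 members at 12 h (64% and 59.6% of all genes). The median absolute log2 FC over the tested members at 12 h was 0.33 in both lines, beside 0.48 and 0.56 over all genes. In A2780cis the 7 include ALDH1A2, here and in the counts for interactions and times below. It held no more than 3 reads in any A2780cis library and passed the filter through the A2780 libraries. A change of it within A2780cis was not detectable, although it also enters the A2780cis median. The A2780 comparisons and the A2780cis comparisons each shared their untreated libraries with the comparison of the lines.

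ALDH1A3 rose in both lines. In A2780 cells it went from 0.33, 0.174 and 0.154 CPM without treatment to 5.75, 5.33 and 6.27 CPM after 12 h of 5-FdU-ECyd, that is from 11 reads in all to 320. The log2 FC was 4.71 ± 0.26 (adjusted p = 7.97e-14), and the ratio of pooled CPM was 27.3 with a counting interval of 15 to 55.2. In A2780cis cells it went from 13.8, 15.5 and 15.5 CPM to 33.2, 31.1 and 25.7 CPM, with a log2 FC of 1.01 ± 0.13 (adjusted p = 1.73e-07). No treated library overlapped with an untreated one in either line, and treated A2780 cells remained below untreated A2780cis cells. ALDH1A3-AS1 moved alongside, from 2 to 5 reads per library to 49 to 75 in A2780 and from 165 to 174 up to 234 to 299 in A2780cis. After the ALDH1A3-AS1 count was taken away, 33 to 54 reads remained in treated A2780 libraries against 0 to 1 without treatment, and 179 to 246 against 111 to 122 in A2780cis.

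At 6 h the ALDH1A3 level in A2780 was 0.682, 0.555 and 0.963 CPM with treatment and 0.359, 0.0946 and 0.182 CPM without, with a log2 FC of 1.70 ± 0.43 (adjusted p = 0.00719). The libraries did not overlap, but the call rested on 27 against 8 reads, a ratio of 3.32 with a counting interval of 1.47 to 8.47. After the ALDH1A3-AS1 count was taken away, -1 to 5 reads remained per treated library and 0 to 3 per untreated one. It was lost without the untreated replicate 2 (log2 FC 1.39, adjusted p = 0.0503) or without the treated replicate 3 (log2 FC 1.43, adjusted p = 0.0632). In A2780cis at 6 h the log2 FC was 0.17 ± 0.13 (adjusted p = 0.372), with an interval of -0.11 to 0.44.

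The ALDH1A3 response at 12 h differed between the lines. The line by treatment interaction was -3.71 ± 0.31 on the log2 scale (adjusted p = 6.82e-09), that is a smaller log2 FC in A2780cis. At 6 h it was -1.53 ± 0.46 and did not pass (adjusted p = 0.0878). The response was also larger at 12 h than at 6 h in both lines, by a log2 difference of 3.02 ± 0.65 in A2780 (adjusted p = 0.00202) and 0.84 ± 0.18 in A2780cis (adjusted p = 0.00173). The difference in A2780 was 2.35 and no longer called (adjusted p = 0.145) without the untreated 6 h replicate 1.

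ALDH1A2, measurable only in the A2780 line, fell. It was at 7.39, 8.16 and 8.38 CPM without and 2.66, 2.74 and 2.14 CPM with treatment at 12 h, with a log2 FC of -1.67 ± 0.18 (adjusted p = 1.33e-08). At 6 h it was at 7.75, 9.27 and 7.37 CPM without and 6.31, 6.29 and 6.22 CPM with treatment. These libraries did not overlap, but the log2 FC of -0.37 ± 0.17 did not pass (adjusted p = 0.104). The fall was larger at 12 h than at 6 h (treatment by time interaction -1.30 ± 0.25, adjusted p = 0.000489). In A2780cis the treated libraries held 6 reads in all at 6 h and 3 at 12 h, beside 5 and 4 without treatment, and a change was not detectable at this depth.

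ALDH1A1 fell in A2780 cells at 12 h, from 3.04, 2.55 and 2.88 CPM to 1.26, 1.37 and 1.41 CPM (log2 FC -1.05 ± 0.21, adjusted p = 0.000161), and not at 6 h (log2 FC 0.14 ± 0.21, adjusted p = 0.658). In A2780cis it was lower at 6 h, with 13.8, 13.8 and 16.2 CPM without and 11.6, 9.78 and 10.1 CPM with treatment (log2 FC -0.48 ± 0.15, adjusted p = 0.0185). That call was lost without the untreated replicate 3 (log2 FC -0.40, adjusted p = 0.0925), the treated replicate 2 (log2 FC -0.44, adjusted p = 0.0712) or the treated replicate 3 (log2 FC -0.46, adjusted p = 0.0665). At 12 h in A2780cis, 11.1, 9.49 and 7.45 CPM without and 9.08, 5.91 and 7.42 CPM with treatment overlapped (log2 FC -0.33 ± 0.15, adjusted p = 0.0694). It was called without the untreated replicate 3 (log2 FC -0.48, adjusted p = 0.0144) or the treated replicate 1 (log2 FC -0.52, adjusted p = 0.00869). The 12 h responses of the lines differed by 0.72 ± 0.26 (adjusted p = 0.047), a call that was lost when any 1 of 10 of the 12 libraries was left out and under 4 of 7 other settings.

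With all its reads counted, ALDH1A3 had the highest RPKM of the retinaldehyde dehydrogenases after 12 h of 5-FdU-ECyd in both lines. Its share of their summed RPKM was 54.6 ± 3.43% (SD, n = 3) in treated A2780 cells and 70.8 ± 4.51% in treated A2780cis cells, against 1.69% and 49.3% on average without treatment. The sum itself was 3.05 ± 0.0569 RPKM in treated A2780, below every untreated 12 h library, and 12.2 ± 1.52 RPKM in treated A2780cis, above every untreated one. With the ALDH1A3-AS1 count taken away, the share of ALDH1A3 was 31.6 ± 5.52% in treated A2780, where ALDH1A2 took 36.7 ± 5.39% and ALDH1A1 31.7 ± 2.1%, so that ALDH1A3 no longer led. In treated A2780cis its share was then 52.3 ± 5.66% beside 47.5 ± 5.65% for ALDH1A1, and the summed RPKM of treated (6.77 to 8.86) and untreated libraries (5.31 to 7.04) overlapped.

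**Figure D3:**
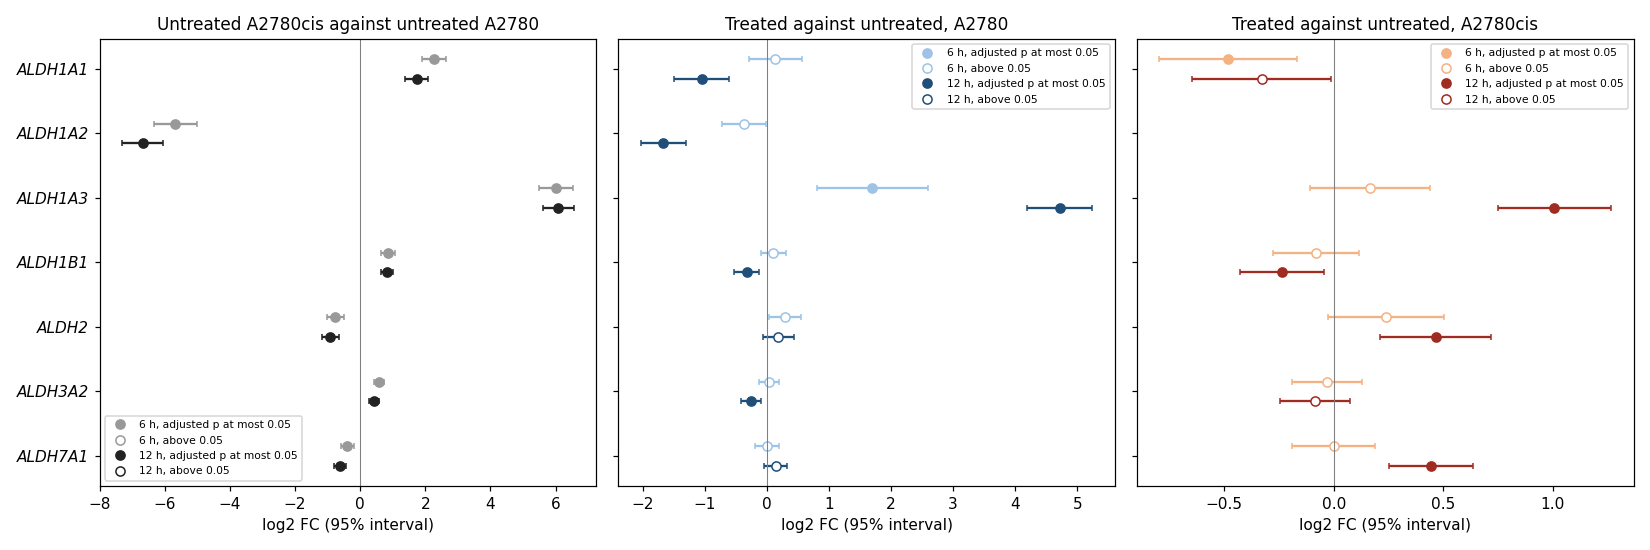
Fitted log2 FC with 95% intervals for the tested members: untreated A2780cis against untreated A2780 (left), treated against untreated A2780 (middle) and treated against untreated A2780cis (right), each with its own horizontal scale. Filled points passed an adjusted p of 0.05, paler colours stand for 6 h and darker ones for 12 h, and ALDH1A2 is left out on the right because it was at the floor. In the middle panel ALDH1A3 at 12 h lies farthest from 0, at 4.71.

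The mitochondrial enzymes went in different directions. ALDH1B1 was lower after 12 h in A2780, at 72.9, 74.6 and 81.2 CPM without and 60, 60.5 and 61.9 CPM with treatment (log2 FC -0.33 ± 0.10, adjusted p = 0.00545), and in A2780cis, at 128, 136 and 142 against 116, 112 and 117 CPM (log2 FC -0.24 ± 0.09, adjusted p = 0.0325). Both calls were lost when libraries were scaled by their total count alone (log2 FC -0.10 and -0.13). The A2780cis call was also lost when only the compared groups were fitted, and without the untreated replicate 2 or 3 or the treated replicate 2, with a log2 FC of -0.21 to -0.24. The response in A2780 was lower at 12 h than at 6 h by 0.43 (treatment by time interaction -0.43 ± 0.14, adjusted p = 0.0233). That call was lost by scaling on the total count (-0.28) and without the untreated 6 h replicate 1 (-0.32), the treated 6 h replicate 2 (-0.38), the untreated 12 h replicate 3 (-0.39) or the treated 12 h replicate 2 (-0.42). ALDH2 was higher after 12 h in A2780cis, at 24, 30 and 30.1 CPM without and 39.6, 37.5 and 38.9 CPM with treatment (log2 FC 0.47 ± 0.12, adjusted p = 0.00212). In A2780 its log2 FC at 12 h was 0.19 ± 0.12 (adjusted p = 0.196), and the responses of the lines were not shown to differ (interaction 0.28, interval -0.07 to 0.63, adjusted p = 0.254).

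ALDH3A2 was lower after 12 h in A2780, at 81.2, 81.1 and 78.3 CPM without and 73.1, 64.3 and 63.9 CPM with treatment (log2 FC -0.26 ± 0.08, adjusted p = 0.00678), a call lost by scaling on the total count (-0.04). In A2780cis the log2 FC was -0.08 (interval -0.24 to 0.07). ALDH7A1 was higher after 12 h in A2780cis, at 144, 126 and 122 CPM without and 194, 152 and 187 CPM with treatment (log2 FC 0.44 ± 0.09, adjusted p = 0.000196). Its untreated level in this line was 184, 168 and 196 CPM at 6 h and had fallen by 12 h (log2 FC -0.48 ± 0.09, adjusted p = 0.00034). Of the treated libraries at 12 h, 2 of 3 lay within the range of the untreated ones at 6 h. The rise was larger at 12 h than at 6 h (treatment by time interaction 0.44 ± 0.13, adjusted p = 0.0151). That call was lost without the untreated 6 h replicate 3 (0.38), the untreated 12 h replicate 3 (0.39), the treated 12 h replicate 1 (0.31) or the treated 12 h replicate 3 (0.34), and without the filter on low counts (0.37). In A2780 the log2 FC of ALDH7A1 at 12 h was 0.14 (interval -0.05 to 0.33).

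At 6 h, ALDH1B1, ALDH2, ALDH3A2 and ALDH7A1 were not called in either line. ALDH2 in A2780 was called under scaling by total count (0.36, adjusted p = 0.0367) and without the untreated replicate 2 (0.41, adjusted p = 0.0299). The log2 FC of these 4 in A2780 were 0.11, 0.29, 0.0329 and -0.00176, and in A2780cis -0.0801, 0.24, -0.0311 and -0.000292. No member passed the line by treatment interaction at 6 h under edgeR's quasi-likelihood test or DESeq2, although 2 had an unadjusted p under 0.05 (ALDH1A1 and ALDH1A3), beside 3.07% of all genes called (0.692% higher, 2.38% lower). At 12 h, 2 of 7 members were called for that interaction, 1 higher and 1 lower, beside 23.7% of all genes (9.7% higher, 14% lower). For the treatment by time interaction 4 of 7 members were called in A2780, 1 higher and 3 lower, beside 23.7% of all genes (10.7% higher, 13% lower), and 2 of 7 in A2780cis, both higher, beside 24% (10.3% higher, 13.6% lower).

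Members also moved between the untreated cultures of 6 h and 12 h. In A2780cis, ALDH1A1, ALDH3A2 and ALDH7A1 were lower at 12 h, 3 of 7 members beside 39.9% of all genes (18% higher, 21.9% lower), with no overlap between libraries for these 3 beside 48.9% of all genes. The ALDH3A2 value was -0.29 ± 0.08 on the log2 scale (adjusted p = 0.00513) and was not called under scaling by total count (-0.12), without the filter on low counts (-0.23) or with only the compared groups fitted (-0.21). In A2780, 2 of 7 members were called beside 26.9% of all genes (16.6% higher, 10.3% lower), with a log2 FC of 0.33 for ALDH2 (adjusted p = 0.0478) and -0.26 for ALDH7A1 (adjusted p = 0.0365). Libraries did not overlap for ALDH3A2 and ALDH7A1, beside 46.1% of all genes. Each of the 2 calls was lost without any 1 of 4 of the 6 libraries (untreated 6 h replicates 1 and 3 and 12 h replicates 2 and 3 for ALDH2, with 0.22 to 0.37, and 6 h replicates 1 and 2 and 12 h replicates 2 and 3 for ALDH7A1, with -0.21 to -0.28).

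Of the 11 other ALDH family genes, 9 had enough reads for the test. In untreated cells at 12 h, 4 were higher and 2 lower in A2780cis, beside 25.4% and 27.5% of all genes. The median log2 FC was 0.32 over the 9 beside -0.01 over all genes. ALDH5A1, the succinate semialdehyde dehydrogenase, was at 14 CPM in A2780 and 34.9 CPM in A2780cis (log2 FC 1.31 ± 0.10, adjusted p = 1.38e-11). ALDH3B1 was at 0.74 and 3.85 CPM (log2 FC 2.37 ± 0.23, adjusted p = 1.91e-09), and ALDH9A1, which makes a carnitine precursor, was lower (log2 FC -0.46 ± 0.09, adjusted p = 0.000101). After 12 h of 5-FdU-ECyd 2 rose and 2 fell in A2780, beside 28.6% and 26.1% of all genes. ALDH18A1, an enzyme of proline synthesis, had a log2 FC of -0.58 ± 0.08 and the mitochondrial folate enzyme ALDH1L2 one of -0.41 ± 0.11, which was not called under scaling by total count (-0.19). ALDH3B1 rose in both lines (log2 FC 0.92 ± 0.26 in A2780 and 1.22 ± 0.17 in A2780cis). It was 1 of 4 that rose in A2780cis, where none fell, beside 31% and 28.9% of all genes. ALDH8A1, singled out after its values were seen, went from 2 reads in all to 52 in A2780cis and from 4 to 15 in A2780 after 12 h.

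**Figure D4:**
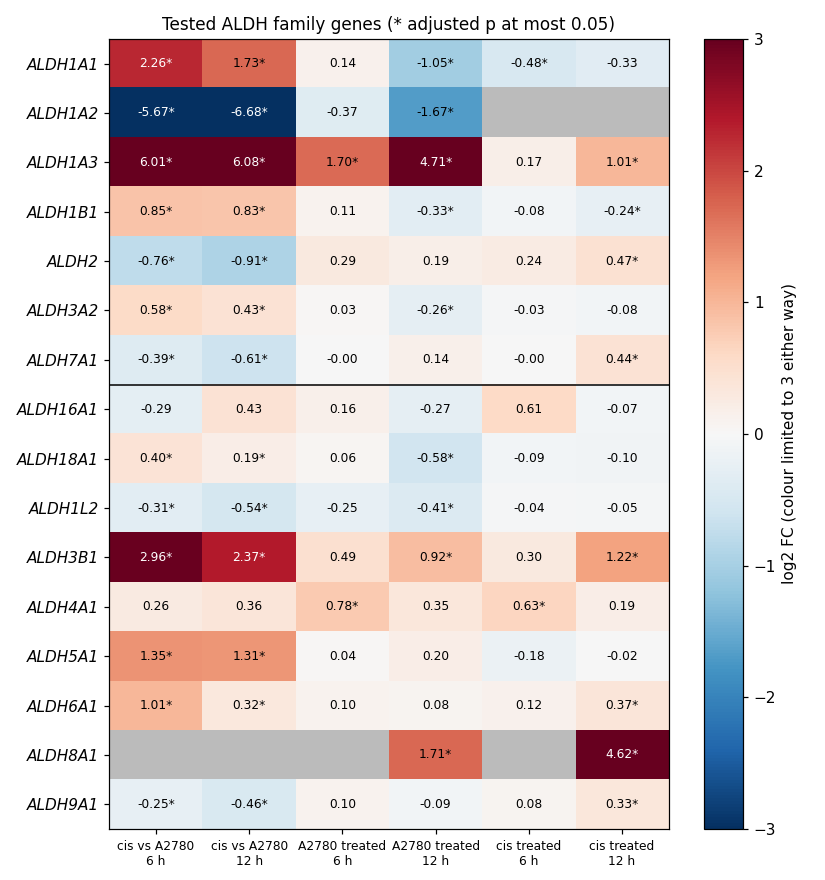
Fitted log2 FC of the 16 tested ALDH family genes (members above the line, the others below it) in the 6 comparisons between groups, with a star where the adjusted p was at most 0.05. Colours end at 3 in either direction and grey cells mark pairs of groups with no more than 3 reads in any library or with a group at 0. ALDH1A2 and ALDH1A3 carry the largest line differences among the members, at -6.68 and 6.08 at 12 h.

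Of 18 listed genes of retinoid uptake, metabolism and signalling, 13 were tested, and in untreated cells at 12 h 2 were higher and 7 lower in A2780cis, beside 25.4% and 27.5% of all genes, with a median log2 FC of -0.28 beside -0.01 over all genes. CRABP2, which carries retinoic acid to its receptors, was at 103.5 ± 12.7 CPM in A2780 and 1.31 ± 0.346 CPM in A2780cis (log2 FC -6.31 ± 0.20, adjusted p = 1.74e-19). STRA6, the retinol transporter, was at 21.1 ± 0.619 CPM in A2780 and had 2 reads over the 3 A2780cis libraries. The receptor gene RARB was at 4.62 ± 0.543 and 0.172 ± 0.0665 CPM (log2 FC -4.66 ± 0.32, adjusted p = 2.08e-12).

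After 12 h of 5-FdU-ECyd, 5 of the 13 retinoid genes rose and 3 fell in A2780, and 2 rose and 4 fell in A2780cis. Of all genes, 28.6% rose and 26.1% fell in A2780, and 31% rose and 28.9% fell in A2780cis. RXRA, the partner of the retinoic acid receptors, fell in both lines (log2 FC -1.31 ± 0.16 and -1.98 ± 0.17, adjusted p = 1.73e-07 and 2.37e-10). In A2780, RARB fell by 1.49 (log2 FC -1.49 ± 0.22, adjusted p = 3.1e-06) and RDH10, which makes retinaldehyde, had a log2 FC of -0.80 ± 0.12 (adjusted p = 3.13e-06). In A2780cis CRABP2 rose from 1.31 to 4.28 CPM (log2 FC 1.72 ± 0.25, adjusted p = 1.47e-06), and CYP26B1, which breaks retinoic acid down, had a log2 FC of -1.24 ± 0.21 (adjusted p = 1.48e-05).

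Of 11 listed genes of aldehyde and ketone metabolism, 8 were tested. The list held AKR and CBR reductases, which turn the same kind of substrate into alcohols, and also ADH5 and AOX1. In untreated cells at 12 h 3 were higher and 4 lower in A2780cis, beside 25.4% and 27.5% of all genes. Among them were AKR1C2 (log2 FC 3.66 ± 0.26), AKR1C1 (2.92 ± 0.35) and CBR3 (-2.55 ± 0.25). The AKR1C genes are near-identical copies, so that the split of reads between them is uncertain. After 12 h of treatment 2 rose and 3 fell in A2780, beside 28.6% and 26.1% of all genes. The log2 FC was -1.89 ± 0.33 for AKR1C3, -1.30 ± 0.22 for CBR3 and 0.28 ± 0.09 for AKR1B1 (0.25 and not called without the filter on low counts). In A2780cis 4 rose and none fell, beside 31% and 28.9% of all genes. There the log2 FC was 0.73 ± 0.12 for AKR7A2, 0.57 ± 0.09 for AKR1B1 and 1.01 ± 0.31 for CBR3. The CBR3 call was lost with DESeq2 and without the untreated replicate 1 (0.75) or the treated replicate 2 (0.89).

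Of 12 listed genes of stem-like states, 6 were tested, and PROM1, CD44, KIT, NANOG, SOX2 and KLF4 had too few reads. In untreated cells at 12 h none was higher and 3 were lower in A2780cis, beside 25.4% and 27.5% of all genes. LGR5, a Wnt-pathway receptor of stem cells, was at 7.48 ± 0.698 CPM in A2780 and 0.335 ± 0.227 CPM in A2780cis (log2 FC -4.45 ± 0.32, adjusted p = 3.95e-12). It fell in A2780 after 12 h of treatment (log2 FC -2.89 ± 0.27, adjusted p = 1.41e-09) and rose in A2780cis (log2 FC 2.91 ± 0.36, adjusted p = 1.41e-07). BMI1, a Polycomb component, fell in A2780cis (log2 FC -0.68 ± 0.12, adjusted p = 3.63e-05). At 12 h of treatment, none of the 6 rose and 2 fell in A2780, beside 28.6% and 26.1% of all genes. In A2780cis 2 rose and 1 fell, beside 31% and 28.9%.

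The genes whose level ran most like that of ALDH1A2 over the 24 libraries were TRHDE, CTNNA2 and PCDH20, with Pearson's r of 0.993, 0.993 and 0.992 among 20239 genes compared. These values include the difference between the lines, and the r of the deviations from the group means was 0.47, 0.38 and 0.59.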

How the data were processed

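RNA-Seq libraries (TruSeq stranded total RNA) of 24 samples in 8 groups of 3 were analysed. Reads of 75 bp are given as single in the labels and as paired-end in the study's methods, and which holds could not be settled from the count table. Per the submitters' processing notes and methods, reads were trimmed with Trimmomatic, aligned with STAR 2.5.2b to GRCh38.p7 and counted per gene with featureCounts, a read with several alignments adding a fraction at each. The authors deposited these values as estimated counts per gene, not normalized. They were rounded to whole numbers here. Genes passed edgeR's filterByExpr by group (minimum count 10, minimum total count 15), which left 20240 of 63299 genes. Libraries were scaled with TMM, and all comparisons came from a single edgeR 4.0.16 quasi-likelihood fit (R 4.3.3) with a coefficient for each group, which left 16 residual degrees of freedom, two-sided, with Benjamini-Hochberg adjustment over all genes tested. In data simulated for A2780 at 12 h, 182 of 200 changed genes and 12 of 20040 unchanged genes were called among 20240 genes. In the measured comparison 54.8% of genes were called, a far larger share than was changed in the simulation. The simulated counts therefore do not give the power to detect the member changes reported here, which was not tested. Total counts of 11077368 to 21901406 per library set the precision. Ratios of pooled counts carry exact 95% intervals, and a count of 0 allows up to 3 counts. RPKM used the canonical transcript of GENCODE release 44. Promoter windows came from RefSeq (GRCh38.p14).

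The members and all gene lists were chosen with earlier results of these data known. Apart from the 8 members, of each list up to 3 genes were named by the smallest adjusted p in the untreated comparison and in each treatment comparison at 12 h, among called genes whose log2 CPM averaged 0 or more over the libraries. For the member with the largest untreated difference at 12 h, the 3 genes of highest Pearson's r were named. Alternatives were DESeq2's size factors, total counts alone, no filter, counts not rounded, a replicate block, only the compared groups, the Wald test of DESeq2 1.42.0, and leaving out each library.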

Additional observations from a re-analysis of the deposited data

Results flagged for a closer look

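The response to 5-FdU-ECyd at 12 h differed between the lines for 2 members, by the line by treatment interaction of edgeR's quasi-likelihood fit. ALDH1A3 had a log2 FC lower in A2780cis than in A2780 by a difference of -3.71 (adjusted p = 6.82e-09), with treated libraries above untreated ones in 3 of 3 libraries of each line. Its log2 FC in A2780 starts from 11 untreated reads in all, and in CPM the rise was larger in A2780cis. ALDH1A1 had a log2 FC higher in A2780cis by 0.72 (adjusted p = 0.047). The ALDH1A1 call was lost when any 1 of 10 of the 12 libraries was left out, and kept under only 3 of 7 other settings.

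The response differed between 12 h and 6 h, by the treatment by time interaction of the same fit, for 4 members in A2780. The differences in log2 FC were -1.19 for ALDH1A1 (adjusted p = 0.00496), -1.30 for ALDH1A2 (adjusted p = 0.000489), 3.02 for ALDH1A3 (adjusted p = 0.00202) and -0.43 for ALDH1B1 (adjusted p = 0.0233). In A2780cis they were 0.84 for ALDH1A3 (adjusted p = 0.00173) and 0.44 for ALDH7A1 (adjusted p = 0.0151). The ALDH1A3 call in A2780 was lost without 1 of the 12 libraries. Those of ALDH1B1 and ALDH7A1 were each lost without any 1 of 4 of the 12, and kept under 6 of 7 other settings. Groups of 3 libraries were too small for a check of single libraries that stand apart.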

How the results depend on the processing

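The comparison of the untreated lines kept 7 called members at 6 h and at 12 h under all 7 other settings and without any 1 library. Of the other counts of called members, that for A2780 at 6 h (1) became 2 with total counts alone, and 0 with only the compared groups, where ALDH1A3 did not pass the filter on low counts. That for the interaction of line and treatment at 12 h (2) became 1 with total counts alone, without the filter, with only the compared groups and with DESeq2's Wald test. That for treatment by time in A2780cis (2) became 1 without the filter, and that for untreated A2780 over time (2) became 1 with DESeq2's size factors, without the filter and with only the compared groups, and 3 with total counts alone, which added ALDH1B1 (0.30). With 1 library left out these counts ranged from 0 to 1 for A2780 at 6 h, 0 to 1 for A2780cis at 6 h, 3 to 5 for A2780cis at 12 h (4), 1 to 3 for line by treatment at 12 h, 2 to 5 and 1 to 2 for treatment by time in A2780 and A2780cis, and 0 to 2 for untreated A2780 over time.

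Values near 0 changed sign. With total counts alone, the log2 FC at 6 h was 0.0651 for ALDH7A1 in A2780 and 0.0173, 0.0658 and 0.0972 for ALDH1B1, ALDH3A2 and ALDH7A1 in A2780cis, that of ALDH3A2 at 12 h in A2780cis was 0.0218, and the ALDH1B1 interaction of line and treatment at 12 h was -0.0272. Without the filter, ALDH7A1 at 6 h was 0.00352 in A2780 and 0.0239 in A2780cis, and with only the compared groups ALDH3A2 and ALDH7A1 in A2780cis at 6 h were 0.00621 and 0.0373. ALDH3A2 at 6 h in A2780 was -0.00665 with DESeq2's size factors and -0.00433 with its Wald test. With 1 library left out, the A2780 values at 6 h ranged from -0.0154 to 0.20 for ALDH1B1, -0.0198 to 0.0711 for ALDH3A2 and -0.0382 to 0.0475 for ALDH7A1, and that of ALDH7A1 in A2780cis from -0.0572 to 0.0518. None of these was called.

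With total counts alone, the median log2 FC over all genes at 12 h of treatment was 0.24 in A2780 (0.02 with TMM) and 0.15 in A2780cis (0.04 with TMM), and 70.7% and 58.8% of called genes were higher (52.3% and 51.7% with TMM). ALDH2 (0.41) and ALDH7A1 (0.36) in A2780 at 12 h were then called as well. The fit with a replicate block called ALDH3A2 for treatment by time in A2780 (-0.29, adjusted p = 0.0481), changed no other call of a member, and gave 1.71e-06 for ALDH7A1 in A2780cis at 6 h. Same-numbered libraries were not shown to deviate together, since in no comparison did every pair's correlation exceed 0.1. Missing this bar cannot exclude a pairing. The correlations were 0.0167 to 0.312 for treated against untreated A2780cis at 12 h and -0.196 to -0.0352 for A2780 at 12 h. The numbers are not read as a pairing. ALDH3A1 throughout and ALDH1A2 in A2780cis are limited by depth.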
